A study of Mus musculus with 5 samples.

Results

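The genes described here are 38 genes of antioxidant defence, chosen by name as peroxiredoxins, thioredoxins, the glutathione system, dismutases and catalase, the NRF2 axis, haem and ferritin genes, sestrins and a few repair or protective genes. All 38 were among the 23234 genes with deposited values. They were measured by RNA sequencing in NP-binding germinal centre light zone B cells of mouse spleen, the cells that collect antigen and are selected by T cell help. Both groups descended from naive donor B cells of a C57BL/6 background with ERT2cre(KI/+), a Cre recombinase switched on by tamoxifen, and B1-8hi(KI/+), a knock-in heavy chain that binds the hapten NP. The donor cells were CD45.1/2 and went into C57BL/6J hosts, whose own B cells lacked these alleles and were left out by the sort. One group was Csk(f/f), floxed at the gene of the kinase that restrains Src family kinases (2 libraries), and the other was Csk(+/+) (3 libraries). NP-CGG in alum was given on day 0 and tamoxifen on days 8 and 9 to both groups, and about 10000 cells were sorted per library on day 11. The comparison asked how these genes differ once Csk is deleted, in a study of receptor-driven reactive oxygen species.

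Reactive oxygen species are made by the NADPH oxidase and by mitochondria. Superoxide is turned into hydrogen peroxide by the dismutases, and peroxide is removed by catalase, peroxiredoxins and glutathione peroxidases. Peroxiredoxins are recharged by thioredoxin and thioredoxin reductase, glutathione peroxidases by glutathione and glutathione reductase, and both reductases draw on NADPH. NRF2, encoded by Nfe2l2, switches on many of these genes when its inhibitor KEAP1 is oxidised. In germinal centre B cells peroxide also modulates receptor signalling, since the tyrosine phosphatases that oppose it are sensitive to oxidation.

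Csk transcript was 453 and 476 FPKM in Csk(f/f)-labelled cells, against 378, 436 and 415 FPKM in Csk(+/+) cells (exact permutation test, two-sided p = 0.2, where 0.1 is the smallest that 10 splits allow). The gene-level value includes exons outside a floxed part, so it does not check the deletion, and the groups are named by their labels. Depth estimated from the steps between low values was 23.4 and 9.50 M fragments in Csk(f/f)-labelled cells and 12 to 19.3 M in Csk(+/+) cells. All 10 germinal centre B cell markers and all 10 light zone markers averaged at least 1 FPKM. The summed light zone markers were 16625 to 16700 FPKM in Csk(f/f)-labelled cells and 11378 to 15093 FPKM in Csk(+/+) cells, but Cd74 alone made up 15637 and 15583 FPKM of the sums in Csk(f/f)-labelled cells and 10393 to 14169 FPKM of those in Csk(+/+) cells. Cd74, Cd83 and Cd40 were higher in each Csk(f/f)-labelled library than in any Csk(+/+) library. Cd86, Bcl2a1a and Bcl2a1d lay the other way without overlap, and Nfkbia, Myc, Egr1 and Egr2 overlapped. Cd86 had 63.4 and 56.9 FPKM in Csk(f/f)-labelled cells, against 80.5, 73.2 and 76.0 FPKM in Csk(+/+) cells. The summed dark zone markers were 368 to 398 FPKM in Csk(f/f)-labelled cells and 446 to 508 FPKM in Csk(+/+) cells. Of that list Gcet2, Polh, Ccnb1, Ccnb2, Aurka, Cdc20 and Plk1 lay lower without overlap, while Foxo1, Mki67 and Cxcr4 overlapped. Cxcr4 had 65.2 and 62.8 FPKM in Csk(f/f)-labelled cells, against 63.5, 61.5 and 58.6 FPKM in Csk(+/+) cells. Fold changes of all genes followed the GC content of the transcript (Spearman rho 0.71 across 10119 genes, which are not independent replicates), and Csk(+/+) replicate 3 stood apart with a library weight of 0.259, against 1.35 or more in the other 4 libraries. Values under a GC correction or without that library are given beside many of the results they move, not all. The part of either in a result was not tested. In these bulk samples fewer cells of a type and less RNA per cell cannot be told apart.

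None of the antioxidant genes passed the test between the genotypes, and most overlapped between them. The filter (1 FPKM or more in 2 or more libraries) left 36 members to test, without Nqo1 and Srxn1. By limma on log2(FPKM + 1), 0 of the 36 passed an adjusted p of 0.05, where 0.0781% of all 10242 tested genes did. An unadjusted p below 0.05 was found for 5 members, where 21.7% of all tested genes had one: 3 with a higher mean (Gsto1, Txnrd2 and Keap1) and 2 with a lower one (Oxr1 and Sesn3), where the background was 8.07% higher and 13.6% lower. The libraries of the groups did not overlap for 12 members (background 45.1%), 8 higher (Prdx6, Txn2, Txnrd2, Sesn2, Gsto1, Glrx5, Keap1 and Park7) and 4 lower (Txn1, Sesn3, Glrx2 and Oxr1) in Csk(f/f)-labelled cells, where 20.7% of all tested genes lay higher and 24.5% lower in that way. The median log2 fold change was 0.09 over the 36 members, with 22 positive, and -0.01 over all tested genes. These shares lie near or below the background.

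**Figure D1:**
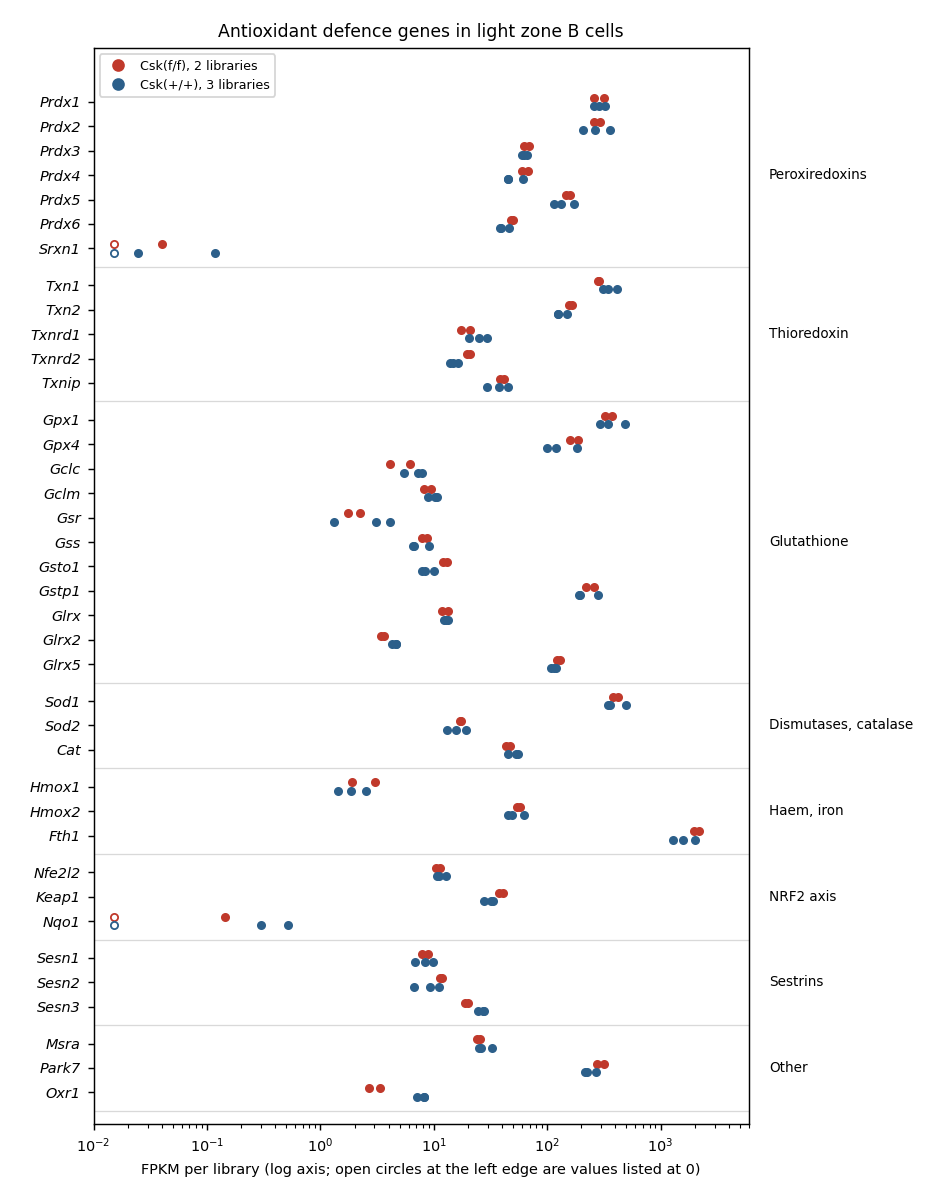
FPKM of all 38 members on a log axis, 1 point per library, in rows grouped by role, with the Csk(f/f)-labelled libraries above the Csk(+/+) libraries in each row. Fth1 lies at the right end, Nqo1 and Srxn1 at the left, and the points of the groups lie close together in nearly all rows, with Oxr1 apart.

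Levels spanned a wide range. Fth1, the ferritin heavy chain that stores iron in a form that cannot feed radical chemistry, was the most abundant member per length in every library. It was followed by Sod1, Gpx1, Txn1, Prdx1, Prdx2, Park7, Gstp1, Gpx4, Prdx5, Txn2 and Glrx5, each above a mean of 100 FPKM over the 5 libraries. Neighbours in this order overlapped in their range over libraries, except Fth1 with Sod1 and Gstp1 with Gpx4. A further 16 members averaged 10 to 100 FPKM, 8 averaged 1 to 10 FPKM, and Nqo1 and Srxn1 lay under 1 FPKM.

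The 6 peroxiredoxins, thiol enzymes that reduce peroxide, were all expressed. Prdx1, the abundant cytosolic form, had 315 and 257 FPKM in Csk(f/f)-labelled cells, against 288, 258 and 324 FPKM in Csk(+/+) cells. The fold in the limma fit, on FPKM + 1, was 0.986 with a 95% interval of 0.764 to 1.27 (limma adjusted p = 0.947), and the groups overlapped. The GC correction moved its log2 fold change of -0.02 ± 0.16 (SE) to 0.36 (adjusted p = 0.52), at a GC content of 42.3%.

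Prdx2, the other cytosolic form, had 293 and 258 FPKM in Csk(f/f)-labelled cells, against 207, 262 and 357 FPKM in Csk(+/+) cells. Its Csk(+/+) values spread more than any difference between groups (fold 1.02, interval 0.714 to 1.47). Red cells are rich in peroxiredoxin 2, and the summed erythroid markers ranged over 199 to 467 FPKM in Csk(f/f)-labelled cells and 190 to 971 FPKM in Csk(+/+) cells, with 7 of the 8 listed genes in the table at a mean of at least 1 FPKM. The highest erythroid sum was in Csk(+/+) replicate 2 and the highest Prdx2 value in Csk(+/+) replicate 3, and the part of red cells in the Prdx2 values was not tested. Exons of Prdx2 also overlap those of Junb and Rnaseh2a on the opposite strand, and without a stated strand setting the reads of such partners cannot be told apart.

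Prdx3, the mitochondrial form, had 69.6 and 62.3 FPKM in Csk(f/f)-labelled cells and 59.9, 62.0 and 66.8 FPKM in Csk(+/+) cells. It was among the steadiest members, with a coefficient of variation of 5.64% over the Csk(+/+) libraries. Its log2 fold change of 0.07 became 0.31 after the GC correction (limma adjusted p = 0.549). Prdx5, found in mitochondria, peroxisomes and cytosol, had 159.9 and 147 FPKM in Csk(f/f)-labelled cells, against 116, 132 and 171 FPKM in Csk(+/+) cells, which overlap, and shares exon positions with Trmt112 on the opposite strand.

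Prdx4, the peroxiredoxin of the endoplasmic reticulum, had 67.5 and 59.8 FPKM in Csk(f/f)-labelled cells, against 45.1, 45.1 and 61.0 FPKM in Csk(+/+) cells. The groups overlapped only through Csk(+/+) replicate 3. Its log2 fold change was 0.34 ± 0.17 (SE, limma adjusted p = 0.272), 0.50 after the GC correction (adjusted p = 0.504) and 0.49 without Csk(+/+) replicate 3 (adjusted p = 0.0544). Plasma cells carry much Prdx4, and the summed plasma cell markers were 227 to 255 FPKM in Csk(f/f)-labelled cells and 255 to 298 FPKM in Csk(+/+) cells, with the regulator Prdm1 under 0.5 FPKM throughout. Members of that list differed in direction. Xbp1 had 116 and 101 FPKM in Csk(f/f)-labelled cells, against 79.8, 87.4 and 93.4 FPKM in Csk(+/+) cells, while Igj had 91.1 and 79.5 FPKM in Csk(f/f)-labelled cells, against 128, 119 and 157 FPKM in Csk(+/+) cells. Their part in the Prdx4 values was not tested.

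Prdx6, which reduces lipid peroxides, had 49.6 and 47.8 FPKM in Csk(f/f)-labelled cells, against 38.8, 39.4 and 46.3 FPKM in Csk(+/+) cells. These groups did not overlap (log2 fold change 0.23 ± 0.14, SE, limma adjusted p = 0.335). Summed over the 6 genes, peroxiredoxin transcript was 955 and 832 FPKM in Csk(f/f)-labelled cells and 755, 799 and 1025 FPKM in Csk(+/+) cells. Prdx1 and Prdx2 together made up 63.7% and 61.9% of that sum in Csk(f/f)-labelled cells, against 65.6%, 65.2% and 66.4% in Csk(+/+) cells. The sum overlapped between groups and the share did not, by a small margin. Srxn1, the sulfiredoxin that rescues overoxidised peroxiredoxins, was listed at 0 and 0.0402 FPKM in Csk(f/f)-labelled cells and at 0.0244, 0.119 and 0 FPKM in Csk(+/+) cells, each value resting on about 6.42 fragments or fewer.

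In the thioredoxin system the cytosolic and mitochondrial arms lay in opposite directions. Thioredoxin itself, Txn1, had 278 and 285 FPKM in Csk(f/f)-labelled cells, against 411, 313 and 341 FPKM in Csk(+/+) cells. Both Csk(f/f)-labelled values lay under all Csk(+/+) values (log2 fold change -0.32 ± 0.15, SE, limma adjusted p = 0.264), and the GC correction put the log2 fold change at -0.17 (adjusted p = 0.772). Its reductase Txnrd1, a selenoprotein, had 17.3 and 21.0 FPKM in Csk(f/f)-labelled cells, against 29.5, 24.9 and 20.4 FPKM in Csk(+/+) cells. The groups overlapped through replicate 3, and the log2 fold change of -0.36 ± 0.19 (SE, limma adjusted p = 0.30) stayed at -0.35 after the GC correction.

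Mitochondrial thioredoxin, Txn2, had 167 and 157 FPKM in Csk(f/f)-labelled cells, against 125, 124 and 150 FPKM in Csk(+/+) cells. Mitochondrial reductase, Txnrd2, had 20.8 and 19.5 FPKM in Csk(f/f)-labelled cells, against 14.8, 16.4 and 14.0 FPKM in Csk(+/+) cells. Neither gene overlapped between groups, with log2 fold changes of 0.28 ± 0.14 and 0.40 ± 0.15 (SE, limma adjusted p = 0.264 and 0.204). With the GC trend removed they were 0.11 and 0.17 (adjusted p = 0.881 and 0.699), both transcripts being of higher GC content (53.5% and 55.0%) than Txn1 (47.2%) and Txnrd1 (49.7%).

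A ratio within a library does not depend on how the library was scaled. The ratio of Txn2 to Txn1 was 0.599 and 0.549 in Csk(f/f)-labelled cells and 0.305, 0.396 and 0.440 in Csk(+/+) cells. That of Txnrd2 to Txnrd1 was 1.2 and 0.931 in Csk(f/f)-labelled cells and 0.502, 0.656 and 0.686 in Csk(+/+) cells. Both ratios were higher in each Csk(f/f)-labelled library than in any Csk(+/+) library. These pairs were chosen after the values were seen and carry no test. On the log2 scale the differences between groups were 0.61 and 0.76, and after the GC correction 0.28 and 0.52, where the corrected values of Txn2 against Txn1 overlapped by 1 library of each group. Txnip, which binds and inhibits thioredoxin, had 41.4 and 38.5 FPKM in Csk(f/f)-labelled cells, inside the Csk(+/+) range of 37.5, 45.3 and 29.2 FPKM.

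**Figure D2:**
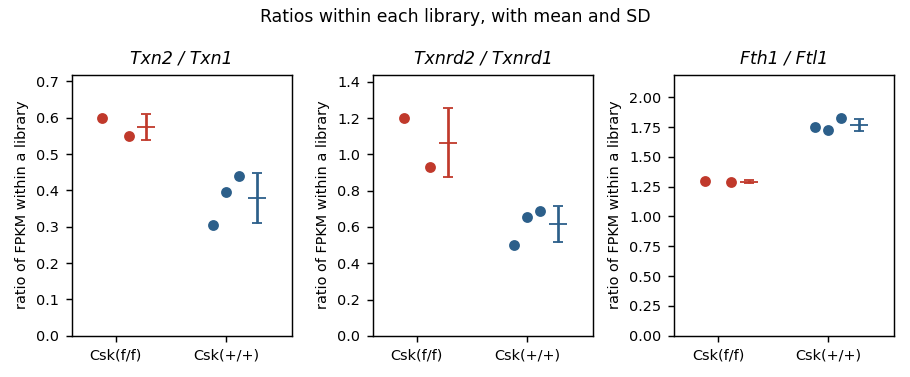
Ratios of FPKM within each library for Txn2 to Txn1, Txnrd2 to Txnrd1 and Fth1 to Ftl1, with axes that start at 0, points as libraries and bars as mean and SD (n = 2 and n = 3). The Csk(f/f)-labelled points lie above the Csk(+/+) points in the thioredoxin panels and below them in the ferritin panel.

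Glutathione enzymes showed no common direction. Gpx1, the cytosolic glutathione peroxidase, had 376 and 321 FPKM in Csk(f/f)-labelled cells, against 293, 341 and 485 FPKM in Csk(+/+) cells, a fold of 0.952 (interval 0.667 to 1.36). Its log2 fold change of -0.07 became -0.36 after the GC correction (limma adjusted p = 0.722). Gpx4, which repairs lipid peroxides in membranes and restrains ferroptosis, had 188 and 160.2 FPKM in Csk(f/f)-labelled cells, against 100.2, 119.6 and 184 FPKM in Csk(+/+) cells. Replicate 3 alone of the Csk(+/+) libraries reached the Csk(f/f)-labelled values. The log2 fold change of Gpx4 was 0.41 ± 0.25 (SE, limma adjusted p = 0.342), and 0.66 without that library (adjusted p = 0.0453), where 4.05% of tested genes passed. The GC correction put it at 0.09 with all libraries (adjusted p = 0.95) and at 0.39 without replicate 3 (adjusted p = 0.164).

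Glutathione is built by the glutamate-cysteine ligase, with its catalytic subunit Gclc and modifier Gclm, and by the synthetase Gss. Gclc had 4.12 and 6.11 FPKM in Csk(f/f)-labelled cells, against 7.80, 7.29 and 5.51 FPKM in Csk(+/+) cells. Gclm had 8.25 and 9.44 FPKM in Csk(f/f)-labelled cells, against 10.2, 10.6 and 8.81 FPKM in Csk(+/+) cells. Both overlapped between groups, with folds of 0.774 (interval 0.532 to 1.12) and 0.905 (0.682 to 1.2), and the sign of Gclm turned with the GC correction (log2 fold change -0.14 before and 0.25 after). Gss averaged 8.36 ± 0.609 FPKM in Csk(f/f)-labelled cells and 7.43 ± 1.36 FPKM in Csk(+/+) cells (SD, n = 2 and n = 3), and its exons overlap those of Acss2 on the opposite strand. Gsr, glutathione reductase, had 2.24 and 1.74 FPKM in Csk(f/f)-labelled cells and 4.11, 3.12 and 1.32 FPKM in Csk(+/+) cells, the widest Csk(+/+) spread of any tested member (coefficient of variation 49.7%). Its log2 fold change was -0.29 ± 0.33 (SE, limma adjusted p = 0.615), and -0.62 without Csk(+/+) replicate 3 (adjusted p = 0.0822).

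Among glutathione transferases and glutaredoxins, Gsto1, an omega-class transferase with thiol reductase activity, had 13.0 and 12.2 FPKM in Csk(f/f)-labelled cells, against 7.87, 8.34 and 10.1 FPKM in Csk(+/+) cells. Every Csk(f/f)-labelled value was above every Csk(+/+) value. The log2 fold change of 0.48 ± 0.18 (SE, limma adjusted p = 0.20) was the highest of the 36 members, and it was 0.38 after the GC correction (adjusted p = 0.556). Gstp1, the pi-class transferase, averaged 240.5 ± 26.3 FPKM in Csk(f/f)-labelled cells and 221 ± 50.2 FPKM in Csk(+/+) cells (SD, n = 2 and n = 3). Its near copy Gstp2 was listed at 116 ± 9.00 and 107 ± 22.9 FPKM, so how reads were split between them is uncertain. Glrx, cytosolic glutaredoxin, averaged 12.5 ± 1.17 and 12.8 ± 0.511 FPKM.

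Glrx2, a mitochondrial glutaredoxin, had 3.66 and 3.40 FPKM in Csk(f/f)-labelled cells, against 4.60, 4.27 and 4.60 FPKM in Csk(+/+) cells. Glrx5, which acts in mitochondrial iron-sulfur cluster assembly, had 129 and 123 FPKM in Csk(f/f)-labelled cells, against 108, 115 and 119 FPKM in Csk(+/+) cells. The groups did not overlap for either gene, Glrx2 lying lower and Glrx5 higher, and both signs turned with the GC correction (log2 fold change -0.28 before and 0.05 after for Glrx2, 0.14 and -0.02 for Glrx5). Limma adjusted p-values before the correction were 0.375 and 0.492.

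The superoxide dismutases and catalase did not separate the groups. Sod1, the cytosolic copper-zinc enzyme, had 419 and 379 FPKM in Csk(f/f)-labelled cells, against 342, 359 and 491 FPKM in Csk(+/+) cells (fold 1.02, interval 0.754 to 1.37). Sod2, the mitochondrial manganese enzyme, had 16.9 and 17.4 FPKM in Csk(f/f)-labelled cells, inside the Csk(+/+) range of 19.2, 15.7 and 13.1 FPKM. Its log2 fold change of 0.11 ± 0.19 (SE) became 0.50 after the GC correction (limma adjusted p = 0.435), at a GC content of 42.2%. Catalase, Cat, the peroxisomal enzyme, had 42.9 and 47.1 FPKM in Csk(f/f)-labelled cells, against 53.3, 55.8 and 45.2 FPKM in Csk(+/+) cells (fold 0.88, interval 0.700 to 1.11). The overlap came through replicate 3.

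Iron and haem genes included the most abundant member. Fth1 had 2204 and 1979 FPKM in Csk(f/f)-labelled cells, against 1278, 1563 and 2014 FPKM in Csk(+/+) cells. The Csk(f/f)-labelled values lay above Csk(+/+) replicates 1 and 2 and on both sides of replicate 3. The log2 fold change was 0.39 ± 0.23 (SE, limma adjusted p = 0.337), 0.38 after the GC correction (adjusted p = 0.733) and 0.56 without replicate 3 (adjusted p = 0.0538). Ferritin genes have many processed pseudogenes, so reads could be split among copies. Fth1 made up 38.9% and 38.8% of the FPKM summed over all members in Csk(f/f)-labelled cells, against 30.4%, 34.5% and 35.2% in Csk(+/+) cells.

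Its partner Ftl1, the ferritin light chain on chromosome 7 and outside the 38, had 1695 and 1539 FPKM in Csk(f/f)-labelled cells, against 729.9, 908 and 1103 FPKM in Csk(+/+) cells. The log2 fold change of Ftl1 was 0.84 ± 0.21 (SE, limma adjusted p = 0.154), and 0.99 without replicate 3 (adjusted p = 0.0209), where it passed. After the GC correction it was 0.54 (adjusted p = 0.561), and 0.74 with that replicate left out as well (adjusted p = 0.08), so neither corrected value passed. The ratio of Fth1 to Ftl1 was 1.30 and 1.29 in Csk(f/f)-labelled cells, against 1.75, 1.72 and 1.83 in Csk(+/+) cells. The groups did not overlap in this ratio, which was chosen after the values were seen and not tested. The GC content of Fth1 was 49.95% and that of Ftl1 58.1%. On the log2 scale the difference in the ratio between groups was -0.45, and -0.16 after the GC correction, where the groups still did not overlap. Macrophages are rich in ferritin, and their 10 markers summed to 24.6 to 24.7 FPKM in Csk(f/f)-labelled cells and 12.2 to 21.5 FPKM in Csk(+/+) cells, with Lyz2 and Cd68 alone at a mean of at least 1 FPKM and Mertk at 0 in every library. Their part in the ferritin values was not tested.

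Hmox1, the inducible haem oxygenase, had 3.04 and 1.88 FPKM in Csk(f/f)-labelled cells, against 1.86, 1.44 and 2.54 FPKM in Csk(+/+) cells, about 28 to 112 estimated fragments a library. The groups overlapped (fold 1.17, interval 0.786 to 1.75), and the log2 fold change was 0.23, or 0.06 after the GC correction. Hmox2, the constitutive form, averaged 56.2 ± 2.56 FPKM in Csk(f/f)-labelled cells and 52.1 ± 8.98 FPKM in Csk(+/+) cells (SD, n = 2 and n = 3), and its exons overlap those of Cdip1 on the opposite strand.

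On the NRF2 axis, Nfe2l2 had 11.3 and 10.5 FPKM in Csk(f/f)-labelled cells, against 11.1, 10.8 and 12.9 FPKM in Csk(+/+) cells (fold 0.947, interval 0.724 to 1.24). Keap1, its inhibitor and oxidant sensor, had 37.5 and 40.9 FPKM in Csk(f/f)-labelled cells, against 31.8, 33.3 and 27.9 FPKM in Csk(+/+) cells. Keap1 did not overlap between groups and Nfe2l2 did. The log2 fold change of Keap1 was 0.33 ± 0.14 (SE, limma adjusted p = 0.227) and 0.03 after the GC correction (adjusted p = 0.954), at a GC content of 58.0%. An antisense gene, Gm16754, overlaps exons of Keap1. Nqo1, the quinone reductase used as a readout of NRF2, was listed at 0.143 and 0 FPKM in Csk(f/f)-labelled cells and at 0.301, 0.523 and 0 FPKM in Csk(+/+) cells, on about 15.6 estimated fragments or fewer. At this depth no difference of Nqo1 or Srxn1 was detectable, and both lay near 0 in each group.

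NRF2 binds the antioxidant response element, whose core TGACNNNGC was searched on both strands of RefSeq promoter windows (GRCm38.p6, 250 bases before to 50 after the start). Its reverse complement reads GCNNNGTCA. Windows were used for 32 members, and 7 of them (21.9%) held the core, against 14.0% of all 27025 genes with a window. The matches of 5 of these 7 members are shown with the core in capitals, 5′ to 3′ on the gene's strand, to set these letters beside the values above. Leaving out the other matches makes no statement on the link of those genes to NRF2.
Prdx1: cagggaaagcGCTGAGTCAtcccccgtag
Txnrd1: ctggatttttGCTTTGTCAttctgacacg
Gclm: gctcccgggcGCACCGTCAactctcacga
Srxn1: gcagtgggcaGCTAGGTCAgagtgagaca
Nfe2l2: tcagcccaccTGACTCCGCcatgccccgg
These windows lie at chr4:116685456-116685484, chr10:82859104-82859132, chr3:122245413-122245441 and chr2:152105542-152105570 on the plus strand, and at chr2:75704885-75704913 on the minus strand, in that order. The core starts at -133, -92, -134, 28 and -240 relative to the start site. The Prdx1 core overlaps TGAGTCA, the letters that AP-1 also reads, and Sod1 and Sesn2 held the other matches. A match describes the letters only. The 5 genes ranged in level from Prdx1, among the most abundant members, to Srxn1 near 0. The means of these 5 were lower in Csk(f/f)-labelled cells as deposited, by little for Prdx1 and Nfe2l2, with Srxn1 near 0 and untested. Those of Sod1 (399 against 397 FPKM) and Sesn2 (11.6 against 9.09 FPKM) were higher, so the 7 genes with a match shared no direction. The GC correction turned the sign of Prdx1, Gclm and Nfe2l2. Promoters of Prdx6, Gclc, Gsr, Hmox1, Msra and Oxr1 were not analysed here. Nqo1 had a window without a match. Only these windows were searched, so a gene without a match may hold the element elsewhere.

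The sestrins, stress-induced proteins that restrain mTORC1, differed among themselves. Sesn3, a FOXO target, had 20.1 and 18.9 FPKM in Csk(f/f)-labelled cells, against 27.4, 27.7 and 24.7 FPKM in Csk(+/+) cells. The groups did not overlap, and the log2 fold change was -0.43 ± 0.14 (SE, limma adjusted p = 0.176). The GC-corrected value was -0.16 (adjusted p = 0.702), at a GC content of 45.0%. Sesn2 had 11.4 and 11.7 FPKM in Csk(f/f)-labelled cells, just above the 9.30, 11.2 and 6.73 FPKM of the Csk(+/+) libraries (log2 fold change 0.34 ± 0.22, SE, and 0.03 after the GC correction). Sesn1, a p53 target, averaged 8.36 ± 0.641 FPKM in Csk(f/f)-labelled cells and 8.32 ± 1.53 FPKM in Csk(+/+) cells (SD, n = 2 and n = 3).

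Oxr1 had the largest difference of the 36 members. It encodes a TLDc domain protein that protects cells, neurons in particular, from oxidative damage. Its FPKM was 3.35 and 2.67 in Csk(f/f)-labelled cells, against 8.18, 7.16 and 8.21 in Csk(+/+) cells. Each Csk(f/f)-labelled library thus lay below each Csk(+/+) library. The fold on FPKM + 1 was 0.452 with a 95% interval of 0.333 to 0.613 (log2 fold change -1.15 ± 0.19, SE, limma adjusted p = 0.128 over all genes), which did not pass. Without Csk(+/+) replicate 3 the log2 fold change was -1.12 (limma adjusted p = 0.0315), where 411 of all tested genes passed, against 8 as deposited. With library weights it was -1.12 (limma adjusted p = 0.0209), where 671 of all tested genes passed. After the GC correction it was -0.81 (limma adjusted p = 0.281). Adjusted p-values ranged over 0.0209 to 0.9997 in all alternatives. Oxr1 has a GC content of 43.6%, and the tested genes nearest to that (a bin with a median of 42.7%) had a lower quartile of -0.55 around a median of -0.38.

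Park7, which encodes the peroxide-sensing protein DJ-1, had 320 and 272 FPKM in Csk(f/f)-labelled cells, against 225, 216 and 271 FPKM in Csk(+/+) cells. The lower Csk(f/f)-labelled value and Csk(+/+) replicate 3 were nearly equal (log2 fold change 0.32 ± 0.15, SE, limma adjusted p = 0.264). The GC correction put it at 0.16 (adjusted p = 0.832). Msra, which repairs oxidised methionine, averaged 25 ± 1.10 FPKM in Csk(f/f)-labelled cells and 27.9 ± 4.06 FPKM in Csk(+/+) cells (SD, n = 2 and n = 3).

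**Figure D3:**
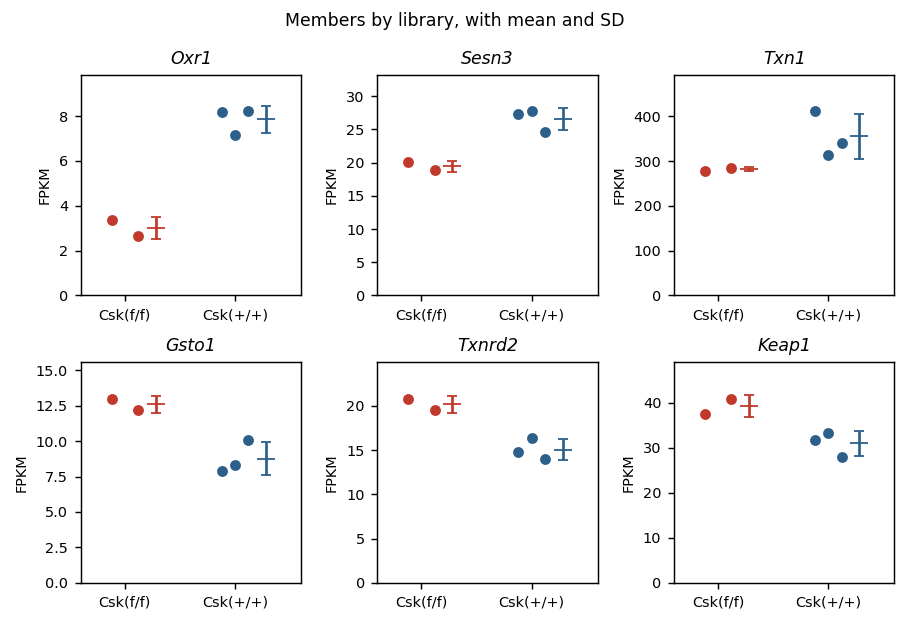
FPKM by library for Oxr1, Sesn3, Txn1, Gsto1, Txnrd2 and Keap1, with axes that start at 0, points as libraries and bars as mean and SD (n = 2 and n = 3). No panel overlaps between groups, with Oxr1, Sesn3 and Txn1 lower and Gsto1, Txnrd2 and Keap1 higher in Csk(f/f)-labelled cells.

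Differences of the members followed transcript GC content as those of all genes did. Over the 36 members the Spearman rho between GC content and log2 fold change was 0.60, and -0.23 after the GC correction, over genes that share the same 5 libraries. Set against the tested genes of nearest GC content, 17 members lay within the quartiles, 13 above the upper one and 6 below the lower one. Those above included Gsto1, Fth1, Prdx4, Sod2 and Prdx1, and those below were Oxr1, Txnrd1, Gclc, Gsr, Gpx1 and Gstp1. By definition, as many tested genes of a bin lie within its quartiles as outside, and as many above as below. Some members lay close to a limit, such as Txnip (0.116 against an upper quartile of 0.115) and Gstp1 (0.137 against a lower quartile of 0.148). The counts were not tested. In the corrected fit 0 members passed the adjusted threshold, where 0.0791% of tested genes did. An unadjusted p below 0.05 was left for Sod2, which lay higher (background 4.89%), and for Oxr1 and Txnrd1, which lay lower (background 5.07%).

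**Figure D4:**
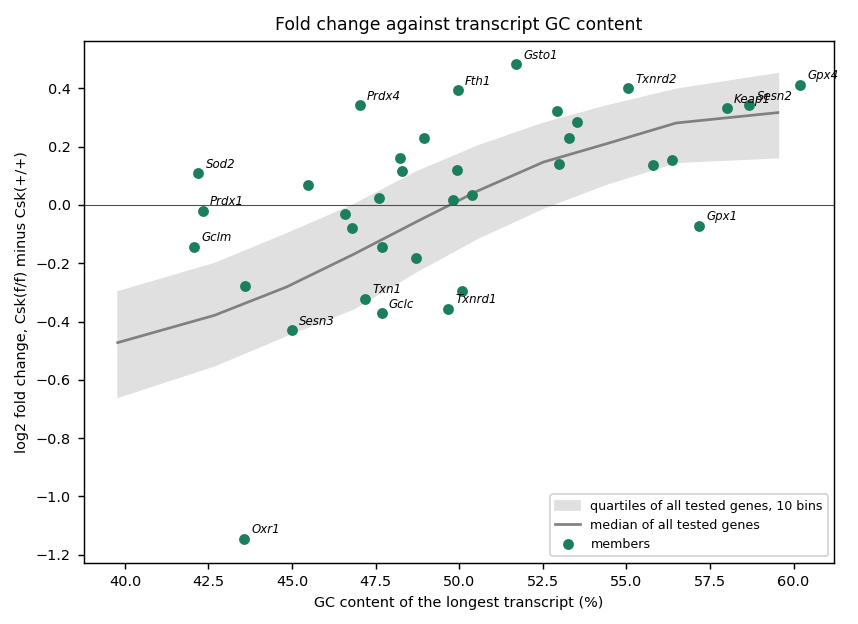
Log2 fold change, Csk(f/f)-labelled minus Csk(+/+), against the GC content of the longest transcript in percent, with the 36 tested members as points and the median and quartiles of all tested genes in 10 bins as a line and band. Most members lie in or near the band, which runs from a median of -0.47 to 0.32, and Oxr1 lies far below it.

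**Figure D5:**
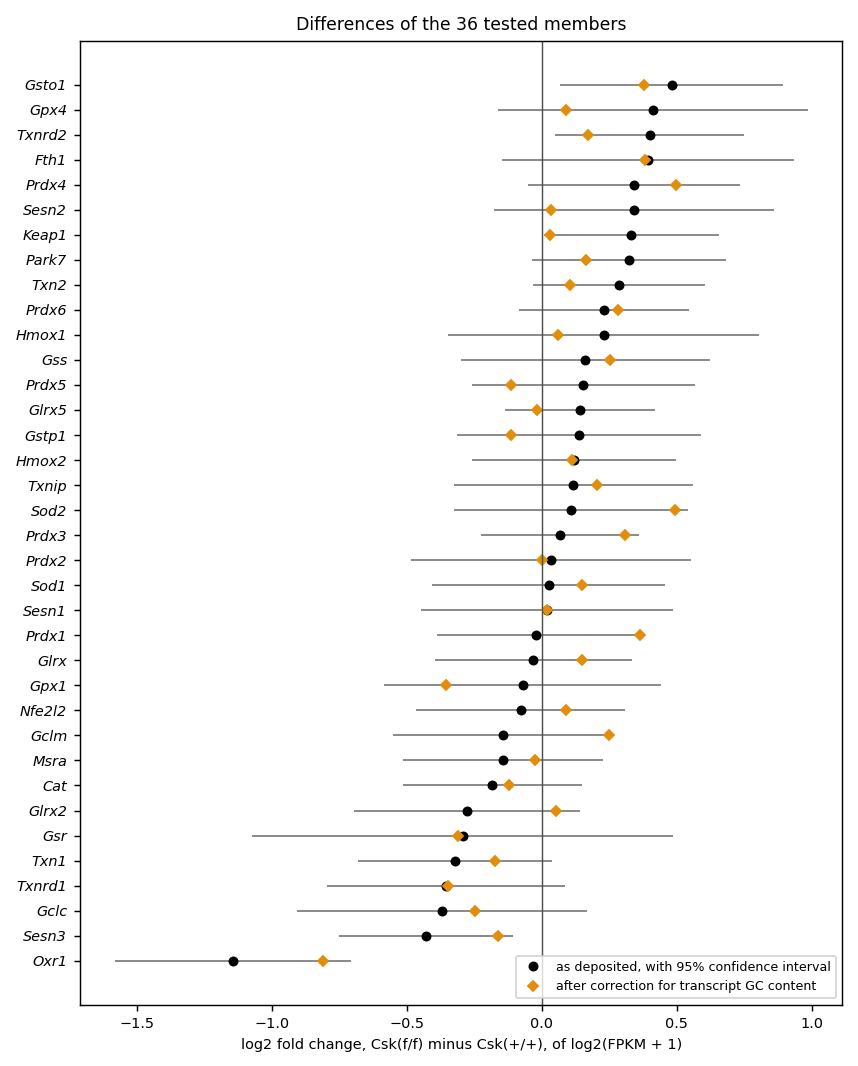
Log2 fold change of each tested member, Csk(f/f)-labelled minus Csk(+/+), on log2(FPKM + 1), with its 95% confidence interval as deposited (black) and its value after the GC correction (orange). The intervals of Gsto1, Txnrd2, Keap1, Sesn3 and Oxr1 leave out 0 before adjustment for the number of genes.

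Leaving out Csk(+/+) replicate 3 raised the calls over all tested genes from 8 to 411. It also added calls among the members, which leaving out any other 1 library did not. That replicate held the highest Csk(+/+) value for 22 of the 36 tested members, where it did so for 28.2% of all tested genes. The median deviation of the members from their gene means was 0.12 and 0.02 in Csk(f/f)-labelled cells and -0.09, -0.05 and 0.07 in Csk(+/+) replicates 1, 2 and 3, so the value of replicate 3 lay between those of the Csk(f/f)-labelled libraries. Without it, the median log2 fold change of the members was 0.15 and that of all tested genes -0.06. By limma 2 members then passed the adjusted threshold (5.56%, near the background of 4.05%), Gpx4 higher (background 1.26%) and Oxr1 lower (background 2.79%). An unadjusted p below 0.05 was found for 10 higher members, 27.8% of the 36 against a background of 13.3%, and for 7 lower ones, 19.4% against 21.4%. With the GC correction as well these numbers were 13 higher, 36.1% against a background of 10.6%, and 3 lower, 8.33% against 9.84%, and 0 passed the adjusted threshold, where 0.399% of tested genes did. Prdx4 (log2 fold change 0.70), Fth1 (0.61) and Prdx1 (0.47) were among the higher members in that fit. Where a gene had its highest Csk(+/+) value in replicate 3, leaving that library out raises the log2 fold change by arithmetic. The backgrounds were not matched for abundance, and the members share the same libraries, so they are not independent.

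A wider list of 60 genes of glutathione, thioredoxin, NADPH supply, iron, haem and NRF2 control gave 46 tested genes. By limma 0 passed the adjusted threshold, while an unadjusted p below 0.05 was found for 7 higher genes (15.2%, against 8.07% of all tested genes) and 2 lower ones (4.35%, against 13.6%), and the median log2 fold change was 0.07. The 4 higher genes with the smallest p were Ftl1, the NRF2 partner Maff, Sqstm1 and the mitochondrial uncoupling gene Ucp2. Maff averaged 2.44 ± 0.194 FPKM in Csk(f/f)-labelled cells and 1.25 ± 0.256 FPKM in Csk(+/+) cells (SD, n = 2 and n = 3). Sqstm1, which encodes p62, the autophagy receptor that sequesters KEAP1, averaged 154 ± 5.85 and 112 ± 16.6 FPKM, and Ucp2 averaged 615 ± 4.37 and 463 ± 56.5 FPKM. The GC correction lowered the log2 fold change to 0.32 for Maff (0.62 before), 0.28 for Sqstm1 (0.47 before) and 0.19 for Ucp2 (0.42 before).

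The 4 lower genes with the smallest p, of which Cul3 and Gstm5 alone had an unadjusted p below 0.05, were Cul3, the ubiquitin ligase scaffold that pairs with KEAP1, Gstm5, Idh1 and Mgst3. Cul3 averaged 16.4 ± 5.49 FPKM in Csk(f/f)-labelled cells and 28.9 ± 3.09 FPKM in Csk(+/+) cells (SD, n = 2 and n = 3). Its log2 fold change of -0.81 ± 0.21 (SE, limma adjusted p = 0.155) was -0.31 after the GC correction, at a GC content of 38.5%. Gstm5 had 0.0546 and 0.135 FPKM in Csk(f/f)-labelled cells, against 0.492, 2.12 and 1.31 FPKM in Csk(+/+) cells. It passed the filter only through Csk(+/+) replicates 2 and 3 and was not tested without replicate 3. Its low p is thus partly tied to the filter and is not read as a result. Idh1, a cytosolic source of NADPH, averaged 2.62 ± 0.572 and 3.80 ± 0.248 FPKM (log2 fold change -0.42, and -0.10 after the GC correction), and Mgst3 was high in Csk(+/+) replicate 2 alone (16.0 FPKM, against 3.10 to 5.02 FPKM in the other 4 libraries). Without Csk(+/+) replicate 3, 2 of 45 tested genes of the list passed (4.44%, against 4.05% of all tested genes), Ftl1 and the transferase gene Gstt2, both higher. With the GC correction as well 0 of 45 passed.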

How the data were processed

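The authors deposited FPKM values per gene (fragments scaled to transcript length and library size), 1 column per library, made with TopHat2 2.0.8 and Cufflinks 2.1.1 on mm9, per the submitters' processing notes. The annotation, strand setting and any scaling between libraries are not given in the sources used here. RNA was taken in TRIzol and libraries were made with the NEBNext Ultra RNA kit, per the labels. A repeated header line was left out. Members and lists were chosen with earlier results of these data known.

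The 10242 genes that reached 1 FPKM in 2 or more of the 5 libraries entered a limma fit (version 3.58.1, R 4.3.3) of log2(FPKM + 1) (trended prior, Benjamini-Hochberg adjustment over all tested genes, threshold 0.05), Csk(f/f)-labelled minus Csk(+/+). Adding 1 understates fold changes of low genes. Folds and their intervals come from this fit and are not ratios of the mean FPKM. P-values measure only the spread between these libraries. All 38 members were named by rule, with each library's value where the unadjusted p was under 0.05 and for peroxiredoxins, the NRF2 axis and the most abundant genes. Of the wider list, 4 higher and 4 lower genes with the smallest p were named. The GC correction removed a lowess trend (span 0.3), fitted per library to the deviations from gene means over the GC content of the longest GENCODE transcript, matched by gene name (98.8% of tested genes). GRCm38 served for names, GC content, exon overlap and promoters, and no mm9 coordinates are given. The fit was run on simulated data with independent noise of equal spread in all libraries. These had no GC trend and no outlying library, so the run does not check the fit under those conditions. Alternatives were other pseudocounts, filters, scalings, weights and priors, a fit blocked on replicate number, the GC correction, and fits that each lacked 1 library.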

Additional observations from a re-analysis of the deposited data

How the results depend on the processing

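Of 753 values of the 36 tested members under the alternatives, 651 kept their direction and side of the threshold, 6 passed it newly and 96 turned sign. The sign turned for 20 members and for 16 in none. The number past the adjusted threshold (0 of 36, 0 of 46 other pathway genes and 8 of all 10242 tested genes) was 2, 2 and 671 with library weights. The 2 members were Oxr1 and Sesn3 (limma adjusted p = 0.0209 and 0.0486), in a fit where calls over all tested genes rose as well. Leaving out 1 library, with or without the GC correction, gave 0 to 2, 0 to 2 and 5 to 411, each highest without Csk(+/+) replicate 3 as deposited, and 5 genes passed with no filter. The median of the members ranged over 0.013 to 0.18 with a library left out. The cause was not tested.

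Deviations from the group mean correlated at -0.13 and 0.11 between replicates sharing a number. The deviations of the 2 Csk(f/f)-labelled libraries mirror each other by construction, so this check can neither show nor exclude pairing. The main fit did not take the numbers as pairs. The replicate block, which leaves Csk(+/+) replicate 3 on a level of its own, gave 1, 3 and 492 past the threshold, of 36, 46 and 10242 tested. Oxr1 was the member (limma adjusted p = 0.0387). With the GC correction it gave 1, 2 and 162, of 36, 46 and 10119 tested (Prdx4, log2 fold change 0.70, limma adjusted p = 0.03), and a member median of 0.18. Signs turned under the block for Prdx1 (0.063), Txnip (-0.045), Gpx1 (0.13), Sod2 (-0.020) and Sesn1 (-0.10), and under the block with GC correction for Prdx1 (0.46), Gclm (0.19), Sesn1 (-0.046), Sesn2 (-0.089), Glrx (0.21), Glrx2 (0.10), Nfe2l2 (0.22), Msra (0.15) and Csk (-0.074).

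On the log2 scale, the GC correction turned Prdx1 (0.36), Prdx2 (-0.00097), Prdx5 (-0.11), Gclm (0.25), Gstp1 (-0.11), Glrx (0.15), Glrx2 (0.054), Glrx5 (-0.019), Nfe2l2 (0.091) and Csk (-0.14). Library weights turned Prdx1 (0.047), Txnip (-0.014), Gpx1 (0.077) and Sesn1 (-0.081), median-ratio rescaling Prdx1 (0.00799), and quantile normalization Prdx2 (-0.014) and Glrx (0.012). With a library left out, with or without the GC correction, the log2 fold change ranged over -0.17 to 0.47 for Prdx1, -0.22 to 0.26 for Prdx2, -0.011 to 0.40 for Prdx3, -0.24 to 0.31 for Prdx5, -0.045 to 0.33 for Txnip, -0.52 to 0.13 for Gpx1, -0.10 to 0.66 for Gpx4, -0.23 to 0.43 for Gclm, -0.074 to 0.37 for Sod1, -0.020 to 0.61 for Sod2, -0.22 to 0.47 for Hmox1, -0.016 to 0.30 for Hmox2, -0.10 to 0.13 for Sesn1, -0.089 to 0.49 for Sesn2, -0.26 to 0.32 for Gstp1, -0.12 to 0.24 for Glrx, -0.32 to 0.10 for Glrx2, -0.084 to 0.18 for Glrx5, -0.13 to 0.22 for Nfe2l2, -0.22 to 0.15 for Msra, -0.19 to 0.23 for Csk and -0.58 to 0.12 for Idh1. Depth limits Nqo1 and Srxn1, which rest on few fragments.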
